A study of Mus musculus with 8 samples.

Results

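The genes described here are 10 angiogenic and endothelial genes, *Vegfa*, *Vegfb*, *Kdr*, *Flt1*, *Apln*, *Angpt1*, *Angpt2*, *Tek*, *Pecam1* and *Cdh5*. They were chosen by name, as ligands and receptors of vessel growth and as markers of the cells that line blood vessels, with earlier results of these data known. Each had 1 row among the 22206 probe sets of the table. The signals came from the gastrocnemius (GAS) of male C57/Bl6j mice aged 14 weeks and were measured on Clariom S arrays 3 weeks after an intramuscular injection of adeno-associated virus (AAV) of serotype 1. One leg of each of 4 animals received a virus with a short hairpin RNA against *Mytho* (D230025D16Rik), a gene linked to autophagy in muscle, and is called MYTHO. The opposite leg received a virus with a scrambled hairpin and is called scrmb, which gave 4 arrays per group. Both groups thus shared the animal, the strain, the sex, the age, the viral vector and the injection, and no leg was left without virus. The hairpins were driven by a U6 promoter, which is active in most cell types, and the array RNA came from pieces of whole muscle with fibres, vessels and other cells together. The 4 animals are called A to D.

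Blood capillaries run between muscle fibres and are built from endothelial cells, which are wrapped by mural cells. Muscle fibres secrete VEGF-A and VEGF-B, which bind receptor tyrosine kinases on the endothelial surface, and VEGF-A drives capillary growth. A second ligand system, the angiopoietins and their receptor TIE2, sets how quiet or how plastic a vessel is, and slow, oxidative fibres are known to lie among more capillaries than fast, glycolytic ones.

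The hairpin lowered its target in all 4 animals. For D230025D16Rik the scrmb legs gave log2 signals of 11.35, 11.31, 10.78 and 11.05 (animals A to D, the order used throughout) and the MYTHO legs gave 8.16, 8.20, 8.80 and 8.08, with a limma log2 fold change of -2.81 and an adjusted p of 0.0004397. The array medians lay between 6.39 and 6.47 in log2 signal, none of the 10 genes was at the ceiling of the deposited log2 signals, 19.93, and no call of presence or absence came with the signals. A log2 signal depends on the probes of its own gene, so levels are compared here between arrays.

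Most of the vessel genes had a higher mean log2 signal in the MYTHO legs, by amounts that were small beside the spread between arrays for some and larger for others. Of the 10 genes, 9 had a positive log2 fold change (MYTHO minus scrmb), with a median of 0.39, while the median over all 22206 probe sets was -0.005 and 49.3% of them were positive. In an unpaired limma fit over all probe sets, *Tek*, *Pecam1* and *Vegfb* were higher at an unadjusted p under 0.05, which is 3 of 10 against 4.81% of all probe sets. None of the 10 was lower by that rule, against 7.58% of all probe sets. After Benjamini-Hochberg adjustment over all probe sets in limma, 0 of the 10 passed 0.05 in either direction, by which rule 0.00901% of all probe sets were higher and 0.018% were lower. At least 2-fold higher with an unadjusted p under 0.05 was 1 of the 10, *Vegfb*, against 0.261% of all probe sets. All 4 MYTHO arrays lay above all 4 scrmb arrays for 3 of the 10, *Tek*, *Pecam1* and *Cdh5*, against 2.59% of all probe sets, and below them for 0 of the 10, against 3.87%. Since earlier results were known when the 10 genes were chosen, these shares are a description and not independent support. Because whole muscle was measured, a higher signal of an endothelial gene can come from more endothelial cells or from more RNA per cell, and the arrays cannot tell these apart.

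**Figure D1:**
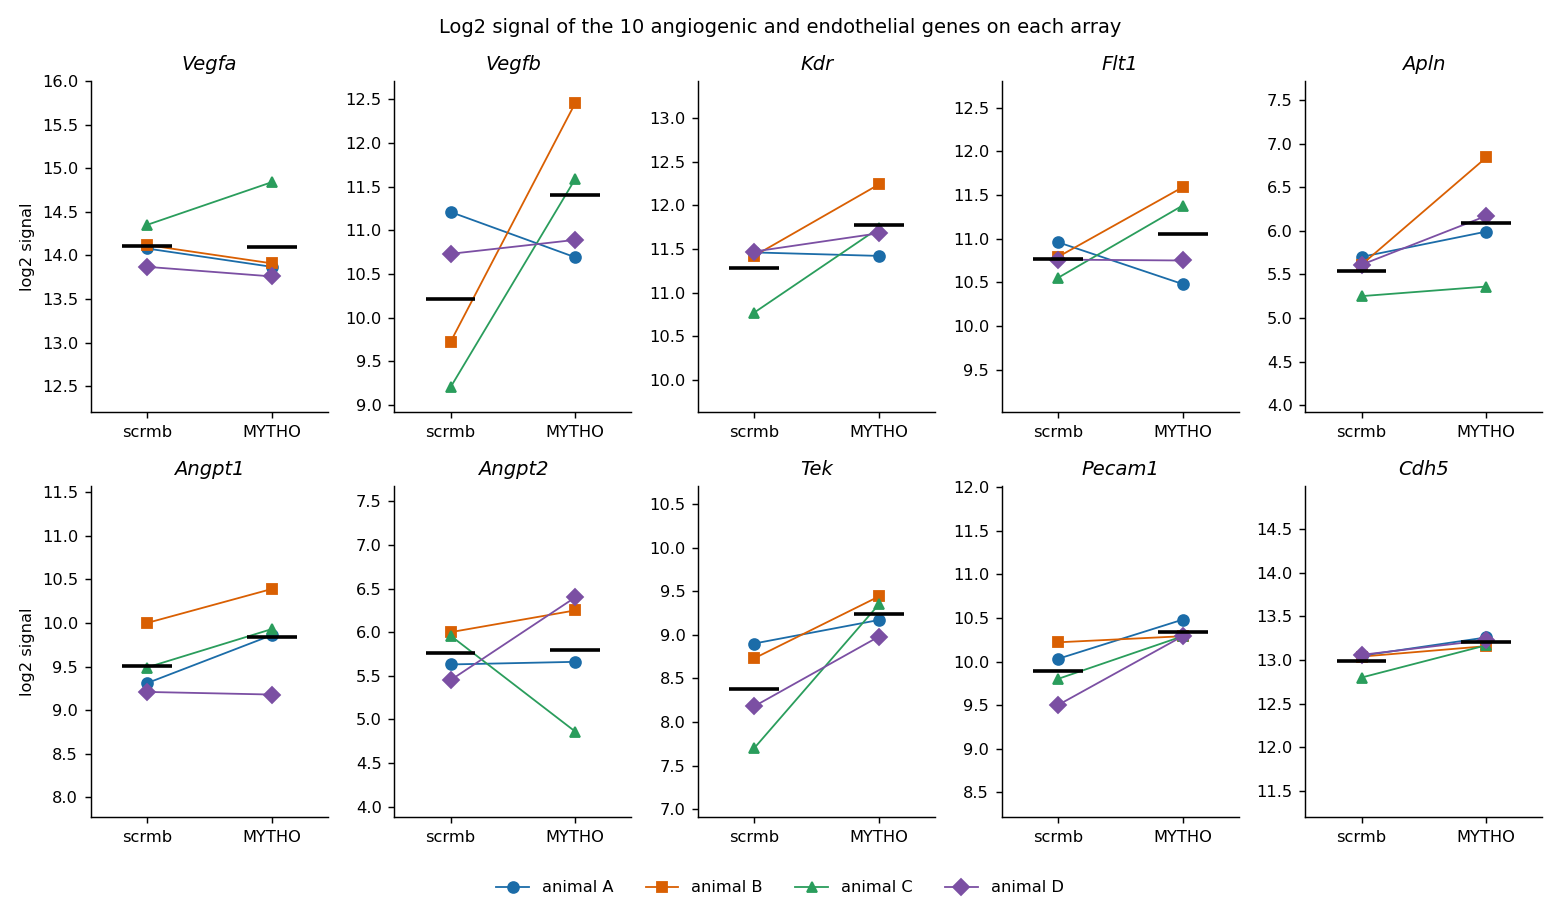
Log2 signal of each of the 10 genes (vertical axis, every panel spanning the same range) in the scrmb and MYTHO legs, with a line joining the legs of one animal and a black bar at the group mean of 4 arrays. *Tek*, *Pecam1* and *Cdh5* were higher in the MYTHO leg of all 4 animals with no overlap of the groups, whereas *Vegfa* and *Angpt2* moved in different directions in different animals.

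Among the VEGF ligands, *Vegfa* encodes the main growth factor of blood vessels, which binds both VEGFR1 and VEGFR2. It lies on chromosome 17 from 46016993 to 46032377 in GRCm38.p6, the same assembly as mm10. *Vegfb* encodes a relative that binds VEGFR1 and is tied to fatty acid use in oxidative tissue, and it lies on chromosome 19 from 6982472 to 6987651. The 250 bases before the start of each ligand gene are shown because these ligands feed one receptor system but differed in their values below. Both are written 5′ to 3′ on the minus strand from RefSeq on GRCm38.p6, with capitals at the core letters bound by hypoxia-inducible factors, ACGTG or GCGTG on either strand.
Vegfa, chr17:46032378-46032627: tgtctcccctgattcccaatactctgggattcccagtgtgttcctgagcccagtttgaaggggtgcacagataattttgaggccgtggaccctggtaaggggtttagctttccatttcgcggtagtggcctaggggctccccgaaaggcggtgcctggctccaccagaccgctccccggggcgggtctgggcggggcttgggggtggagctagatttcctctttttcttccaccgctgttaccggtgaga
Vegfb, chr19:6987652-6987901: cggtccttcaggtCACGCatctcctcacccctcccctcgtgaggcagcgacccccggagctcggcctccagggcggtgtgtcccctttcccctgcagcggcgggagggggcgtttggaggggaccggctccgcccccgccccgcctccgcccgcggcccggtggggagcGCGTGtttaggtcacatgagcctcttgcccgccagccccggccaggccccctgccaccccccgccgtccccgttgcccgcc
The *Vegfa* window held 0 of these cores and the *Vegfb* window held 2, while 38.6% of 32851 RefSeq windows of the same length held at least 1. A second *Vegfa* start inside the gene has its own window, not printed, with 2 cores. The windows of the other genes that had an entry, also not printed, held 2 cores for *Kdr*, 1 for *Flt1*, 0 for *Tek* and 0 for *Apln*. Those of *Kdr*, *Flt1* and *Tek* overlapped the gene itself, and sites beyond the windows were not searched. A link between cores and log2 fold changes was not tested. The GC box GGGCGG, searched on both strands, occurred 2 times before *Vegfa* and 4 times before *Vegfb*, with no base shared with the cores, and was present in 32.7% of all windows. These letters are a description of the sequence and do not show that a factor binds there.

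*Vegfa* had nearly the same mean log2 signal in both groups, 14.11 ± 0.20 in scrmb and 14.10 ± 0.50 in MYTHO (SD, n = 4 each). The scrmb legs gave log2 signals of 14.08, 14.12, 14.35 and 13.87 and the MYTHO legs gave 13.87, 13.91, 14.84 and 13.76. The MYTHO array of animal C was the highest of the 8, and the other 3 MYTHO arrays lay below the scrmb array of the same animal. MYTHO minus scrmb, the log2 fold change was -0.01 (standard error 0.24), with a 95% interval from -0.54 to 0.52 (limma, unadjusted p = 0.968, adjusted p = 0.993), or from 0.686-fold to 1.44-fold.

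*Vegfb* had the highest log2 fold change of the 10 genes and a wide spread within both groups. In log2 signal, animals A to D read 11.21, 9.72, 9.20 and 10.73 on the scrmb side and 10.69, 12.46, 11.59 and 10.89 on the MYTHO side. The MYTHO legs of animals B and C exceeded the opposite legs by 2.74 and 2.39 in log2 signal, animal D differed by 0.16, and animal A went the other way by -0.52. Group means of 10.22 ± 0.92 and 11.41 ± 0.80 (SD, n = 4 each) made a 2.29-fold higher signal in the MYTHO group (limma log2 fold change 1.19, standard error 0.46, unadjusted p = 0.0235, adjusted p = 0.323). The groups overlapped, and without 1 array the unadjusted limma p was 0.0654 (scrmb B), 0.0804 (scrmb C), 0.0813 (MYTHO B) or 0.0533 (MYTHO C), and with trend and robust eBayes on all arrays it was 0.0521.

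Of the VEGF receptors, *Kdr*, on chromosome 5 from 75932827 to 75979072, encodes VEGFR2, the receptor that carries most of the growth signal in endothelial cells. Signals (log2, animals A to D) were 11.46, 11.42, 10.77 and 11.47 with the scrambled hairpin and 11.42, 12.24, 11.74 and 11.68 with the *Mytho* hairpin. The scrmb arrays of animals A, B and D were almost level and that of animal C was lower, and 3 of 4 animals were higher in the MYTHO leg. A log2 fold change of 0.49 (standard error 0.23, 95% interval -0.01 to 0.99, limma unadjusted p = 0.0546, adjusted p = 0.416), or 1.40-fold, did not pass. The unadjusted p was under 0.05 with quantile normalization (0.0413), with each array centred on its median (0.0427), with trend and robust eBayes (0.0304) and without the MYTHO array of animal A (0.03), while the log2 fold change was 0.32 (unadjusted p of 0.174) without scrmb C and 0.33 (0.168) without MYTHO B.

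*Flt1*, also on chromosome 5 from 147561604 to 147726438, encodes VEGFR1, which binds VEGF-A tightly and signals weakly. Across animals A to D, the scrmb arrays read 10.96, 10.79, 10.55 and 10.76 in log2 signal and the MYTHO arrays 10.48, 11.59, 11.38 and 10.75. Animals B and C were higher in the MYTHO leg by 0.80 and 0.83, animal D was level at -0.01 and animal A was lower at -0.48. The log2 fold change of 0.29 had a 95% interval from -0.25 to 0.82 (limma unadjusted p = 0.272, adjusted p = 0.699), and it was 0.11 without MYTHO B and 0.48 (unadjusted p of 0.0691) without MYTHO A. *Vegfb*, *Kdr* and *Flt1* thus shared a layout over the animals, with the highest differences in animals B and C. As a description over 8 arrays that share legs of 4 animals, the Pearson r of the log2 signals was 0.913 for *Vegfb* and *Kdr*, 0.815 for *Vegfb* and *Flt1* and 0.801 for *Kdr* and *Flt1*. With the group means taken out these r values were 0.856, 0.794 and 0.778, while *Vegfa* and *Kdr* had an r of -0.18 before and -0.22 after.

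*Tek*, on chromosome 4 from 94739086 to 94874976, encodes TIE2, the endothelial receptor for both angiopoietins. The scrmb legs gave log2 signals of 8.90, 8.73, 7.70 and 8.18 and the MYTHO legs gave 9.17, 9.44, 9.35 and 8.98. The lowest MYTHO array stood just above the highest scrmb array, and the MYTHO leg was higher in 4 of 4 animals, by 0.27 in animal A and up to 1.65 in animal C. The means were 8.38 ± 0.55 and 9.24 ± 0.20 (SD, n = 4 each), a 1.81-fold difference (limma log2 fold change 0.86, standard error 0.26, 95% interval 0.30 to 1.42, unadjusted p = 0.00606, adjusted p = 0.214). *Tek* was the only one of the 10 genes with an unadjusted p under 0.05 in all 17 alternative settings, where p ran from 0.00189 to 0.0187 and the adjusted p stayed between 0.126 and 0.433 in limma.

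*Angpt1*, on chromosome 15 from 42424667 to 42676977, encodes the ligand that activates TIE2 and is made mostly by mural and other supporting cells. In log2 signal, animals A to D read 9.31, 10.00, 9.49 and 9.21 on the scrmb side and 9.86, 10.39, 9.93 and 9.18 on the MYTHO side. The animals differed in level in both legs, with B highest and D lowest, and 3 of 4 were higher in the MYTHO leg by 0.39 to 0.55. The log2 fold change of 0.34 had a 95% interval from -0.24 to 0.92 (limma unadjusted p = 0.228, adjusted p = 0.659). Without the MYTHO array of animal D it was 0.56, with an unadjusted p of 0.0427, and without that of animal B it was 0.15, with an unadjusted p of 0.565.

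*Angpt2*, on chromosome 8 from 18690263 to 18741562, encodes the ligand that endothelial cells release to loosen vessels and that can block TIE2. Signals (log2, animals A to D) were 5.63, 6.0, 5.96 and 5.45 with the scrambled hairpin and 5.66, 6.25, 4.86 and 6.40 with the *Mytho* hairpin. The MYTHO arrays included both the lowest and the highest of the 8, with differences of -1.10 in animal C and 0.95 in animal D. Between the groups the log2 fold change was 0.03, with a 95% interval from -0.64 to 0.70 (limma unadjusted p = 0.917, adjusted p = 0.982).

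*Apln*, on chromosome X from 48025146 to 48034853, encodes a peptide made by sprouting endothelial cells that acts on the receptor APLNR. Across animals A to D, the scrmb arrays read 5.70, 5.61, 5.25 and 5.61 in log2 signal and the MYTHO arrays 5.99, 6.84, 5.36 and 6.17. The MYTHO leg was higher in 4 of 4 animals, by 0.11 in animal C and up to 1.23 in animal B, although the MYTHO array of animal C lay within the scrmb range. *Apln* had a log2 fold change of 0.55 (standard error 0.27, limma unadjusted p = 0.0693, adjusted p = 0.449), and in the paired fit with animal as a replicate block the unadjusted p was 0.037 and the adjusted p 0.364. Its log2 fold change was 0.30 (unadjusted limma p of 0.231) without MYTHO B and 0.79 (0.00725) without MYTHO C. Without a detection call it is unknown how far *Apln* and *Angpt2* stood above background.

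Among the endothelial junction genes, *Pecam1*, on chromosome 11 from 106654213 to 106715281, encodes CD31, the adhesion protein commonly stained to count capillaries. The scrmb legs gave log2 signals of 10.03, 10.22, 9.80 and 9.50 and the MYTHO legs gave 10.48, 10.29, 10.29 and 10.29. The MYTHO arrays of animals B, C and D were equal to 2 decimals, all 4 lay above the scrmb arrays, and the gap between the groups was the 0.07 between the legs of animal B. The means were 9.89 ± 0.31 and 10.34 ± 0.10 (SD, n = 4 each), a 1.37-fold difference (limma log2 fold change 0.45, standard error 0.19, unadjusted p = 0.0369, adjusted p = 0.366). The unadjusted p exceeded 0.05 without scrmb C (0.0752), scrmb D (0.117), MYTHO A (0.0879), MYTHO B (0.0525), MYTHO C (0.0525) or MYTHO D (0.0548).

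*Cdh5*, on chromosome 8 from 104101613 to 104144504, encodes VE-cadherin, which holds endothelial cells to each other. In log2 signal, animals A to D read 13.05, 13.04, 12.80 and 13.06 on the scrmb side and 13.26, 13.16, 13.17 and 13.23 on the MYTHO side. Every MYTHO array was above every scrmb array and the MYTHO leg was higher in 4 of 4 animals, by 0.12 to 0.37. Its log2 fold change was only 0.22, with a 95% interval from -0.13 to 0.57 (unadjusted p = 0.2, adjusted p = 0.635) from limma, which moves the spread of each gene toward that of all probe sets.

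**Figure D2:**
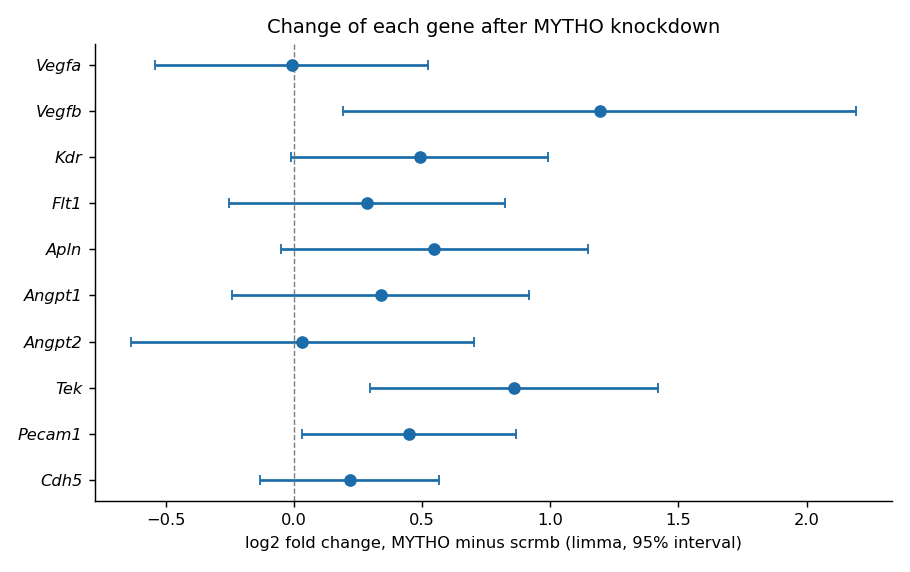
Log2 fold change (horizontal axis, MYTHO minus scrmb, 4 arrays per group) of the 10 genes with the 95% interval of the limma fit. The intervals of *Vegfb*, *Tek* and *Pecam1* lie above 0, those of *Kdr* and *Apln* reach just below it, and *Vegfa* and *Angpt2* sit at -0.01 and 0.03.

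The mean log2 signal of the 5 endothelial genes *Kdr*, *Flt1*, *Tek*, *Pecam1* and *Cdh5* ran from 10.3 to 10.9 over the scrmb arrays and from 10.96 to 11.3 over the MYTHO arrays. Among single-gene probe sets outside the 10 genes and the lists below, *Tmcc3*, *Mtmr2*, *Slc29a2*, *Higd2a* and *Dapp1* followed this mean most closely over the 8 arrays, with Pearson r of 0.979, 0.976, 0.975, 0.968 and 0.965. They are the top of those single-gene probe sets, a part of the 22206, ranked on 8 arrays, and their own log2 fold changes ran from 0.44 (*Mtmr2*) to 0.99 (*Dapp1*).

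The rest of the pathway was described through 107 further genes in 9 lists. Of these, 14 were higher at an unadjusted limma p under 0.05, or 13.1%, beside the 4.81% over all probe sets, 0 were lower and 0 passed after adjustment. Their median log2 fold change was 0.175, and 79 of 107 were positive. Without the scrmb array of animal C, 8 were higher, in a fit for which the share over all probe sets was not taken. These lists were chosen with earlier results of these data known, so the shares are a description only.

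Among 12 partners of these ligands and receptors, 10 had a positive log2 fold change, the median was 0.33, and 2 were higher at an unadjusted p under 0.05. *Ptprb* encodes VE-PTP, the phosphatase that restrains TIE2, and its log2 signal was 9.74 to 10.43 in the scrmb legs and 10.35 to 11.09 in the MYTHO legs (log2 fold change 0.65, limma unadjusted p = 0.0101, adjusted p = 0.249, and an unadjusted p of 0.0695 without scrmb A and MYTHO D). *Plxnd1*, an endothelial receptor for semaphorins, was 1.51-fold higher (limma unadjusted p = 0.0413, adjusted p = 0.38), with groups that overlapped. Its call was lost in 5 of the 17 alternatives, with a log2 fold change of 0.37 (unadjusted p of 0.138) without scrmb C in place of 0.59.

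Among 15 genes of Notch, ephrin, FGF, PDGF and BMP signals between vessel cells, 11 were positive, the median log2 fold change was 0.13 and 3 were higher at an unadjusted p under 0.05. These were *Fgf1*, a growth factor with log2 signals of 7.39 to 7.94 in scrmb and 7.99 to 9.45 in MYTHO legs, *Eng*, the endothelial co-receptor of BMP9, and *Pdgfb*, the ligand by which endothelium recruits mural cells. Their log2 fold changes were 0.85, 0.80 and 0.75, with unadjusted limma p of 0.0137, 0.0292 and 0.0118 and adjusted p of 0.271, 0.344 and 0.261. Without MYTHO B the log2 fold change of *Fgf1* was 0.52 (unadjusted p = 0.0243), and the call of *Eng* was lost without scrmb B (0.0647), scrmb C (0.0968, log2 fold change 0.51) or MYTHO B (0.0969). *Fgf1* was the gene of this list whose groups did not overlap.

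Of 26 further endothelial markers, 24 had a positive log2 fold change, with a median of 0.36. In this list 6 were higher at an unadjusted p under 0.05 and 0 were lower. *Ecscr*, an endothelial surface protein that binds VEGFR2, had log2 signals of 5.96, 6.53, 5.44 and 6.54 in the scrmb legs and 7.70, 7.65, 7.35 and 6.81 in the MYTHO legs of animals A to D. All MYTHO arrays lay above all scrmb arrays, and the fold was 2.40 (log2 fold change 1.26, limma unadjusted p = 0.000784, adjusted p = 0.119). The endothelial transcription factors *Sox18*, *Erg* and *Sox7* had log2 fold changes of 0.76, 0.65 and 0.63 (limma unadjusted p = 0.0145, 0.0454 and 0.00942, adjusted p = 0.275, 0.39 and 0.243). The call of *Erg* was lost in 6 of the 17 alternatives, with log2 fold changes of 0.40 (unadjusted p of 0.152) without MYTHO B and 0.46 (0.142) without scrmb C, and that of *Sox7* without scrmb A and MYTHO D (0.0696). The remaining pair past that limit, *Tal1* and *Icam2*, named after their values were seen, had log2 fold changes of 0.54 each (limma unadjusted p = 0.0342 and 0.0274), and the paired fit with the replicate block gave 0.0566 and 0.0515. The mean of the 26 markers was 7.21 to 7.43 over the scrmb arrays and 7.55 to 7.86 over the MYTHO arrays, and the MYTHO leg was higher in every animal, by 0.43, 0.43, 0.38 and 0.18 in A to D.

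Of 10 mural cell markers, 9 were positive and 1 was higher at an unadjusted p under 0.05. That was *Rgs5*, a pericyte gene with log2 signals of 13.87 to 14.50 in scrmb and 14.37 to 14.84 in MYTHO legs (log2 fold change 0.45, limma unadjusted p = 0.0427, adjusted p = 0.385), for which the paired fit with the replicate block gave an unadjusted p of 0.0542, and whose call was also lost in 5 of the 8 fits without 1 array. Of 6 lymphatic markers, 2 were positive, and the one with the lowest p, *Ccl21a*, whose row also names *Gm1987*, had a log2 fold change of -0.63 (limma unadjusted p = 0.0568, adjusted p = 0.421). That p was under 0.05 in 6 of the 17 alternatives, and with 1 array left out the log2 fold change ran from -0.85 (without MYTHO A) to -0.39 (without scrmb B). Of 10 angiogenesis inhibitors, 6 were positive with a median of 0.03, and the one with the lowest p, *Thbs1*, had a log2 fold change of 0.27 (limma unadjusted p = 0.319, adjusted p = 0.73) and ran from 0.08 (without scrmb C) to 0.43 (without scrmb A) with 1 array left out.

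Upstream of the ligands, 1 of 7 genes of the hypoxia-inducible factor pathway was higher at an unadjusted p under 0.05. *Epas1* encodes HIF-2α, the hypoxia-inducible factor that is abundant in endothelial cells. Signals (log2, animals A to D) were 11.69, 11.36, 10.63 and 10.91 with the scrambled hairpin and 12.37, 12.63, 12.31 and 11.95 with the *Mytho* hairpin. All 4 MYTHO arrays were above all scrmb arrays, a 2.25-fold difference (log2 fold change 1.17, limma unadjusted p = 0.00051, adjusted p = 0.105), while *Hif1a*, named for contrast after its values were seen, had a log2 fold change of 0.02 (95% interval -0.37 to 0.40). Of 14 targets of these factors, 8 were positive and 1 was higher, *Egln3*, an oxygen-sensing prolyl hydroxylase with log2 signals of 12.84 to 13.76 in scrmb and 13.48 to 14.91 in MYTHO legs (log2 fold change 1.15, limma unadjusted p = 0.00256, adjusted p = 0.164). A second row of lower signal that names *Egln3* had a log2 fold change of 0.11 (limma unadjusted p = 0.687). Of 7 genes listed as regulators of *Vegfa* in muscle, the PGC-1 and ERR genes with *Ppard*, *Prkaa1* and *Prkaa2*, 3 were positive and 0 passed in either direction. The one with the lowest p was *Ppargc1b*, with a log2 fold change of 0.57 (limma unadjusted p = 0.106, adjusted p = 0.514). With 1 array left out it ran from 0.37 (without scrmb C) to 0.88 (without MYTHO D). Leaving out scrmb A and MYTHO D, its highest scrmb and lowest MYTHO arrays, gave 1.02 (limma unadjusted p = 0.00419), a rise fixed by that choice.

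**Figure D3:**
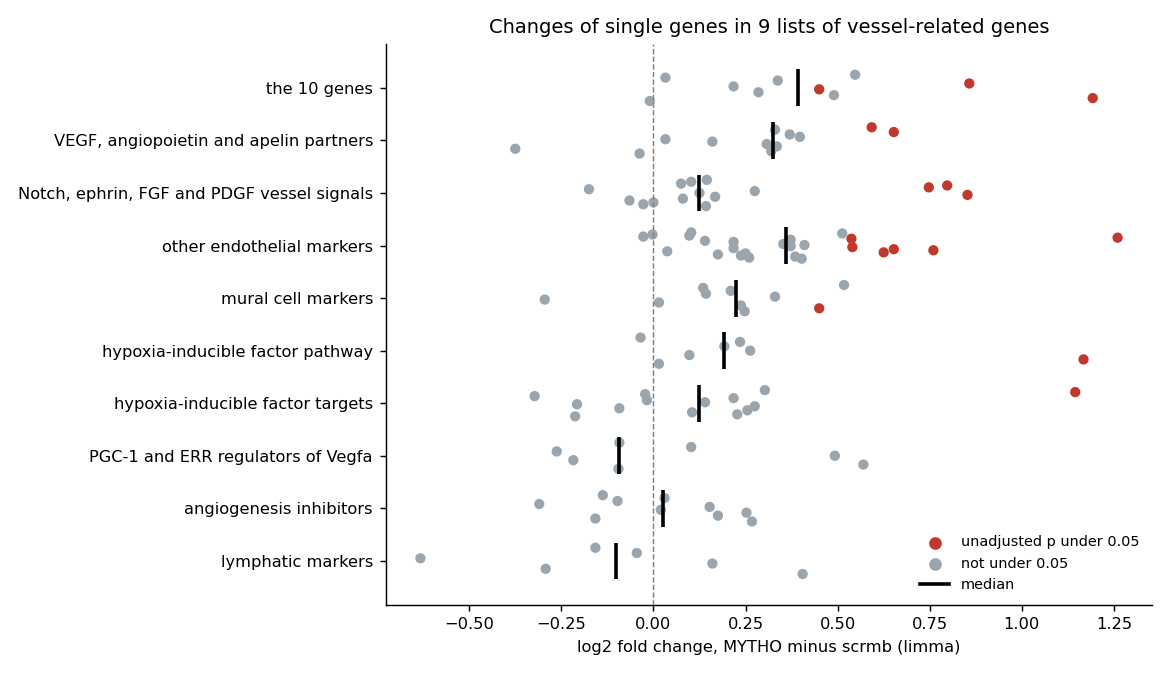
Log2 fold change (horizontal axis, MYTHO minus scrmb, limma) of every gene in the 10 and in the 9 lists of 107 vessel-related genes, with red points at an unadjusted p under 0.05 and black bars at the medians. The 10 genes and the 26 other endothelial markers have medians of 0.39 and 0.36, and the lymphatic list has a median of -0.10.

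Markers of other cells in the muscle piece were read on the same arrays. Of 8 slow-fibre markers, 7 were higher at an unadjusted p under 0.05, and the median log2 fold change of the list was 1.59. The marker not called, *Myl2*, had an unadjusted limma p of 0.131, and 0.0181 in the paired fit with the replicate block. The highest were *Tnni1*, *Tnnc1*, *Myh7* and *Tpm3*, contractile proteins of slow fibres, with log2 fold changes of 2.44, 1.88, 1.82 and 1.67 (limma unadjusted p = 0.0151, 0.0187, 0.0247 and 0.0189, adjusted p = 0.28, 0.301, 0.326 and 0.302). In the same order, their unadjusted limma p was under 0.05 in 15, 12, 10 and 12 of the 17 alternatives. With trend and robust eBayes none of these 4 passed (unadjusted p = 0.0794, 0.0861, 0.102 and 0.0857). With scrmb A and MYTHO D left out their log2 fold changes were 4.07, 3.18, 3.15 and 2.79 (limma adjusted p = 0.000335, 0.000577, 0.000577 and 0.0111). These arrays held the highest scrmb and the lowest MYTHO mean of this list and were left out after the data were seen. The larger changes and smaller p were thus fixed by that choice and are no further evidence. The mean of the list was 13.7, 11.9, 11.9 and 11.6 in the scrmb legs and 14.9, 14.4, 14.8 and 11.7 in the MYTHO legs (animals A to D). The legs of animals B and C thus differed by 2.52 and 2.87 in log2 signal, those of animal A by 1.18 and those of animal D by 0.08. Animals B and C were also those with the highest differences in *Vegfb*, *Kdr* and *Flt1*. The mean of 5 adipocyte markers ran the opposite way over the animals, with differences of 3.02, -2.75, -1.25 and 0.73 in A to D. As a description over 8 arrays with the group means taken out, the Pearson r of *Vegfb*, *Kdr* and *Flt1* was -0.64, -0.72 and -0.55 with the adipocyte mean and 0.42, 0.13 and 0.35 with the slow-fibre mean. Over all 10 genes these r values ran from -0.72 (*Kdr*) to 0.60 (*Pecam1*) with the adipocyte mean and from -0.55 (*Angpt2*) to 0.54 (*Tek*) with the slow-fibre mean, and *Tek* had an r of -0.09 with the adipocyte mean. The part of fat or fibre content in these values was not tested. The GAS holds regions of different fibre type, and the region each piece came from is not given in the sources used here. In animal D, with the smallest slow-fibre difference, *Tek* and *Pecam1* differed by 0.80 and 0.79, *Kdr*, *Cdh5* and *Vegfb* by 0.21, 0.17 and 0.16, *Flt1* by -0.01 and the mean of the 26 endothelial markers by 0.18, the lowest of the 4 animals. Without those same arrays, scrmb A and MYTHO D, the log2 fold changes of *Tek* and *Vegfb* were 1.12 and 1.70 (limma unadjusted p = 0.00239 and 0.00535), and that of *Pecam1* was 0.51 (unadjusted p = 0.056). For *Tek* these were also the highest scrmb and the lowest MYTHO array, and for *Vegfb* scrmb A was the highest scrmb array. The rise of *Tek* was thus fixed by the choice of arrays.

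**Figure D4:**
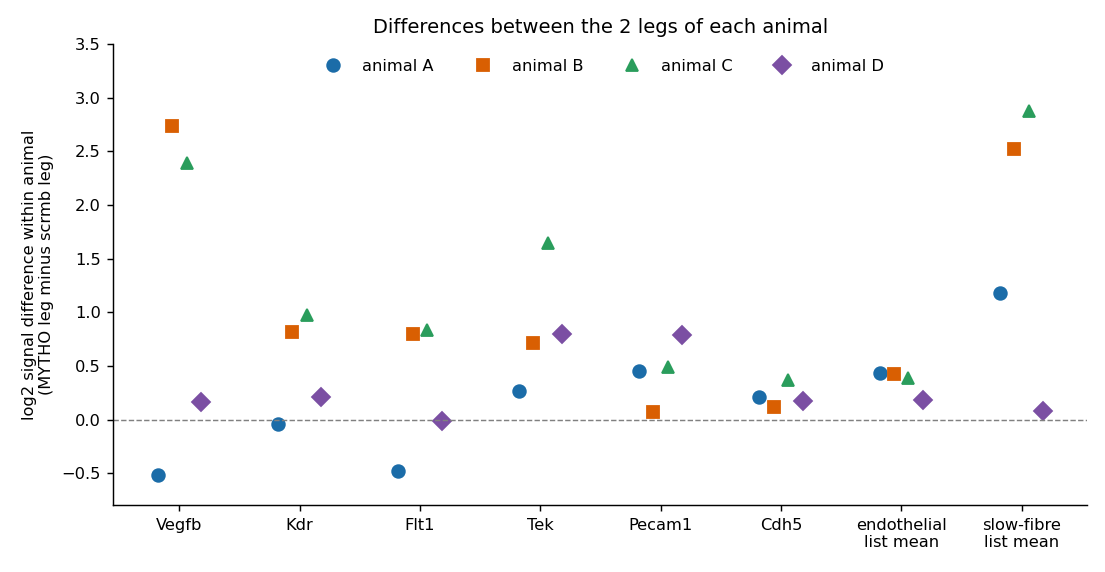
Difference in log2 signal between the MYTHO and scrmb legs (vertical axis) of animals A to D for 6 of the genes and for the means of the 26 endothelial and 8 slow-fibre markers. *Vegfb*, *Kdr* and *Flt1* are highest in animals B and C, as is the slow-fibre mean at 2.52 and 2.87, while the endothelial mean is between 0.18 and 0.43 in all animals.

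The fast-fibre list could show little change, because *Myh4* and *Atp2a1* were at the ceiling of 19.93 on all arrays and *Tnnt3*, *Tnni2*, *Actn3* and *Pvalb* lay between 19.38 and 19.93. Its median of -0.01 is therefore not read here, and *Myh1*, the myosin of type IIX fibres, was higher by 0.70 (limma unadjusted p = 0.0178, adjusted p = 0.295, and an unadjusted p of 0.06 without scrmb C and 0.0589 without MYTHO B). Macrophage and fibroblast markers had medians of -0.07 and 0.03. The macrophage marker with the lowest p was *Mrc1*, with a log2 fold change of -0.45 (unadjusted p = 0.0822, adjusted p = 0.474 in limma), which was -0.64 (unadjusted p of 0.0141) without scrmb D and -0.29 without MYTHO C, and the fibroblast proteoglycan *Dcn* was lower with -0.60 (unadjusted p = 0.0085, adjusted p = 0.236). Blood cell markers, which show how much blood stayed in the tissue, had a median of 0.09, and 1 of 8 was higher, the platelet gene *Gp1bb*, whose row also names *Sept5* (log2 fold change 0.79, limma unadjusted p = 0.00354, adjusted p = 0.179). The other platelet genes of the list, *Pf4* and *Itga2b*, named after their values were seen, had log2 fold changes of -0.15 and -0.14. Adipocyte markers had a median of -0.17, list means from 5.28 to 8.91 over the scrmb arrays and from 5.63 to 10.4 over the MYTHO arrays, and *Lep* as the one with the lowest p (log2 fold change 0.44, limma unadjusted p = 0.533, adjusted p = 0.848). The macrophage marker *Cd68*, named after its values were seen, had a log2 fold change of 0.54 (limma unadjusted p = 0.0882), and the paired fit with the replicate block gave an unadjusted p of 0.0332. The list means overlapped between groups for the macrophage, fibroblast, blood cell and adipocyte lists.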

How the data were processed

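The authors deposited gene-level log2 signals of 8 Clariom S Mouse arrays, made by SST-RMA with default settings in the Transcriptome Analysis Console 4.0.1 with annotation release 36 on mm10, and rounded to 2 decimals. SST-RMA quantile normalizes arrays, so a shift common to all genes is lost. Group averages, folds, p-values and false discovery rates in the deposited table were not used. Members and lists were chosen with earlier results of these data known, and all 10 members and 152 list genes were matched by symbol (1 by synonym). The groups were compared with limma 3.58.1 in R 4.3.3 (lmFit, eBayes, two-sided, without a block, since the array methods name an eBayes ANOVA and do not mention pairing), with Benjamini-Hochberg adjustment over 22206 probe sets; the fit was tested on simulated data. Same-numbered columns come from opposite legs of one animal by design; their deviations from the group means correlated at 0.0027, -0.0014, 0.1345 and 0.0871 in animals A to D. Which labelled replicate each column holds is unknown. Named genes were the members, the target, up to 4 genes per list with an unadjusted p under 0.05 and the largest changes (otherwise the lowest p), and the 5 most alike to the endothelial mean. Precision is limited by 4 arrays per group.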

Additional observations from a re-analysis of the deposited data

Results flagged for a closer look

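Among 50 groups of 4 arrays checked for 1 array far from the other 3, 8 had one, where chance gives about 1 in 20 groups. For single genes these were *Vegfa* in MYTHO animal C (14.84 against 13.76 to 13.91), *Kdr* in scrmb animal C (10.77 against 11.42 to 11.47), *Cdh5* in scrmb animal C (12.8 against 13.04 to 13.06) and *Pecam1* in MYTHO animal A (10.48 against 10.29 on each other array). For list means these were the Notch, ephrin, FGF and PDGF genes in MYTHO animal B (8.44 against 7.97 to 8.04), the targets of hypoxia-inducible factors in MYTHO animal B (9.48 against 9.28 to 9.31), and the slow-fibre markers in scrmb animal A (13.7 against 11.6 to 11.9) and in MYTHO animal D (11.7 against 14.4 to 14.9).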

How the results depend on the processing

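Of 168 values of the 10 genes under 17 alternative settings, 138 kept their direction and side of an unadjusted p of 0.05, and no gene passed after adjustment in any of them. The log2 fold change of *Vegfa* was 0.03 with median centring, 0.093 without scrmb A and MYTHO D (left out together, an alternative chosen after seeing the data) and -0.26 to 0.10 with 1 array left out. That of *Angpt2* was -0.21 without those arrays and -0.17 to 0.34 with 1 left out, and *Lep* ran from -0.37 to 0.89 with 1 left out. The share over all probe sets was taken for the main fit only. The counts below, also those of the paired fit, therefore have no background beside them and show only how far each count moved. With 1 array left out, 1 to 3 of the 10 genes were higher (1 without scrmb C or MYTHO B), 0 to 2 were at least 2-fold higher, 3 to 8 of the 26 endothelial markers were higher (3 without scrmb C), and of the 107 vessel genes 8 to 16 were higher and 0 to 2 lower. Genes at least 2-fold higher numbered 0 with trend and robust eBayes and 2 without scrmb A and MYTHO D. Endothelial markers numbered 3 in the upper 50% of probe sets. Vessel genes lower numbered 1 with trend and robust eBayes, with array weights and without saturated probe sets, and 3 without scrmb A and MYTHO D. With trend and robust eBayes, 2 vessel genes passed after adjustment in limma, *Epas1* (0.0251) and *Ecscr* (0.0458), whose adjusted p ran up to 0.31 over the alternatives. In the paired fit with the replicate block, 4 of the 10 genes and 12 vessel genes were higher, and the calls of the named genes *Apln*, *Cd68* and *Myl2* (gained) and *Rgs5*, *Tal1* and *Icam2* (lost) changed. None of the 10 genes had another row to take in its place, but the second rows of *Egln3* and *Ccl21a* gave log2 fold changes of 0.11 and -0.47 (limma unadjusted p = 0.687 and 0.136). The causes were not tested.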
